A study of Schmidtea mediterranea with 60 samples.

Results

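The 6 libraries described here came from whole bodies of the planarian Schmidtea mediterranea with opa1 RNAi, 3 taken at 1dpa and 3 at a time labelled homo. They were chosen by the labels for tissue, RNAi and time, and are 6 of the 24 whole-body libraries and of the 60 libraries in all. The other whole-body groups were drp1, sod2 and egfp RNAi at the same times, with 3 libraries each, and all animals had been given RNAi, egfp being the control. The 36 tail libraries had pairs of RNAi, and the opa1;egfp tails at 1dpa and 0dpa are used below as a separate experiment. By its title the series is about regeneration of the whole body. In such work dpa stands for days post amputation, and the sources used here do not explain homo. Whether a library was 1 animal or a pool is not stated, so p-values reflect the spread among libraries alone, which may be technical.

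Planarians regrow missing tissue from neoblasts, dividing stem cells spread through the body, whose daughters renew every cell type. Opa1 codes for a GTPase of the dynamin family that fuses the inner mitochondrial membrane and shapes its cristae, and drp1 for a related GTPase that divides mitochondria. Sod2 codes for the manganese superoxide dismutase of mitochondria, and egfp for a jellyfish protein that planarians lack. Feature IDs are not paired with gene names in the files, which give no positions, so features go by ID only. For the same reason neither the opa1 transcript nor markers of any planarian cell type could be looked up, and the whole-body label could not be checked against them. In bulk RNA, fewer cells of a type and less RNA per cell cannot be told apart.

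More features were detected at 1dpa than at homo with opa1 RNAi. Depth was also higher in every 1dpa library than in any homo library, and its part in this was not tested. The libraries summed to 13950000 to 14330000 estimated counts at 1dpa and 13110000 to 13470000 at homo, against 10610000 to 14330000 over all whole-body libraries. Features above 0 numbered 29762 to 30179 at 1dpa and 27784 to 28286 at homo. The 100 features with the most counts took 21.8% ± 0.541 of a library at 1dpa and 27.5% ± 0.482 at homo (SD, n = 3 each). TMM factors, by which edgeR corrects library sizes for such shifts in composition, were 1.09 to 1.14 at 1dpa and 0.856 to 0.887 at homo. On the first principal component of all whole-body libraries, which held 35.3% of the variance, the 1dpa libraries lay at 33.5 to 47.2 and the homo libraries at -58.7 to -48.1. The values of 47.2 and -58.7 were the highest and lowest of any whole-body library, but both ranges overlapped another group. Replicate 2 of egfp RNAi at 1dpa lay at 34.4, and replicate 1 of drp1 RNAi at homo lay at -49.7. Replicates correlated at r = 0.986 to 0.990 across features, 0 pairs were identical, and they varied beyond counting error, at a chi-square of 4.37 to 7.28 for each degree of freedom.

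The change between the times in opa1 RNAi was broad, and large changes were mostly rises. Of 22889 features tested, edgeR's quasi-likelihood test called 12182 (53.2%) at an adjusted p under 0.05, 6228 (27.2%) higher and 5954 (26%) lower at 1dpa. With no filter for low counts 11867 of 34373 were called. Changes over 2-fold were called for 2876 higher and 1183 lower features, over 4-fold for 476 and 67, and over 8-fold for 81 and 8. In 13656 features (59.7%), the 3 libraries of one time all lay above the 3 of the other. Of the called features, 11546 (94.8%) were separated in that way. Features higher at 1dpa together took 22.6% ± 1.12 of counts at 1dpa and 11.5% ± 0.653 at homo. Features lower at 1dpa took 57.6% ± 1.36 and 72.9% ± 0.979, and features not called took 19.6% ± 0.261 and 15.5% ± 0.324 (SD, n = 3 each). The same libraries chose these features, so the shares are a description, and they are of library counts without TMM scaling.

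How evenly calls divided into rises and falls depended on the scaling between libraries, whereas most of the rises did not. With TMM, 51.1% of calls were higher at 1dpa and the median log2 fold change of all features was 0.09. With library totals alone, an alternative chosen after the TMM factors had been seen, 78.7% of 13398 calls were higher and the median was 0.44. With limma on log2(TPM + 1) of the deposited TPM values, 89.4% of 14673 calls were higher and the median was 0.49. Called the same way under TMM, RLE, library totals and TPM were 5706 of the 6228 rises (91.6%) but 1513 of the 5954 falls (25.4%). Among changes over 2-fold these numbers were 2596 of 2876 rises and 884 of 1183 falls. Every rise or fall below is relative to the TMM scaling unless another is named.

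The features that drew few counts moved up relative to those that drew many. With features divided into quartiles by mean CPM, counts scaled to library size and not corrected for length, the median log2 fold change in opa1 RNAi was 0.57 in the lowest quartile and 0.30 in the next. It was -0.03 in the third quartile and -0.23 in the highest. Called lower were 4.74% of the lowest and 52.9% of the highest quartile, and called higher were 21.4% and 23.8%. Few counts also limit the calls that can be made in the lowest quartile. The order of the medians was the same with library totals, at 0.93, 0.66, 0.33 and 0.13, and with TPM, at 0.66, 0.59, 0.48 and 0.34, but the medians of the upper quartiles were then positive. In egfp RNAi the medians were 0.03, 0.02, 0.05 and -0.05. They fell in the same order with drp1 RNAi, at 0.19, 0.10, 0.04 and -0.12. With sod2 RNAi they also fell, at 0.16, 0.08, -0.005 and -0.05. Features of the longest quartile by relative effective length, taken from the ratio of count to TPM, were called higher in 46.6% and lower in 18.3% of cases. In the shortest quartile these shares were 19.9% and 25.3%. Long features also drew more counts, with a Spearman rho of 0.49 across features, so length and counts are not independent measures.

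**Figure D1:**
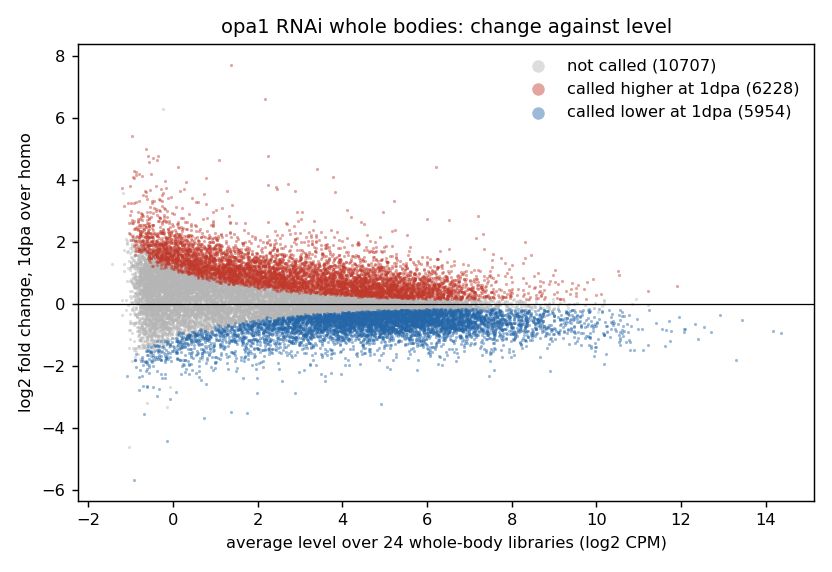
Each point is 1 of 22889 features in opa1 RNAi whole bodies, with the average level over 24 libraries in log2 CPM on the horizontal axis and the log2 fold change of 1dpa over homo on the vertical axis. Red points are the 6228 features called higher at 1dpa, blue points the 5954 called lower and grey points were not called, and falls crowd toward the right while the tallest rises lie toward the left.

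**Figure D2:**
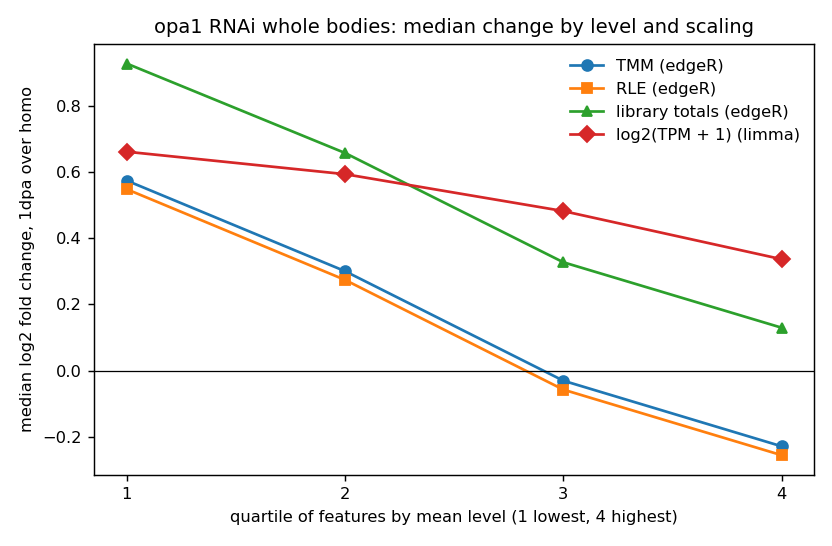
Median log2 fold change of 1dpa over homo in opa1 RNAi whole bodies for each quartile of features by mean CPM, under 4 scalings. All 4 lines fall to the right, and only with TMM and RLE do they pass below 0, reaching -0.23 with TMM in the highest quartile.

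The largest rises were of features almost unseen at homo. SMED30029247 had 2.88, 5.91 and 2.40 CPM at 1dpa with opa1 RNAi, against 0, 0 and 0.0854 CPM at homo. Separation of the opa1 RNAi libraries between the times, and an average log2 CPM of at least 1, were part of how this and the other features with the largest changes were chosen. The homo libraries together held 1 count of it against 177 at 1dpa. The ratio of the scaled sums was 129, with an exact 95% counting interval of 22.9 to 5138 that covers counting error only. Its fitted log2 fold change was 6.60 (SE 0.88, edgeR, adjusted p = 2.98e-07), and 8.60 without homo replicate 3, the library with the count. SMED30022734 had 4.29, 7.31 and 5.52 CPM at 1dpa, against 0.446, 0.170 and 0 CPM at homo. Its homo libraries were also near 0, with a log2 fold change of 4.75 (SE 0.50, edgeR, adjusted p = 3.02e-09), which was 5.88 without homo replicate 1 and 4.17 without homo replicate 3.

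The same features rose with egfp RNAi too (edgeR, adjusted p = 1.12e-07 and 2.05e-09). SMED30029247 had 7.92, 4.83 and 7.41 CPM in egfp RNAi at 1dpa, against 0.161, 0 and 0 CPM at homo. SMED30022734 had 10.5, 7.28 and 10.3 CPM in egfp RNAi at 1dpa, against 0.482, 0.0866 and 0.416 CPM at homo. No difference between the opa1 and egfp RNAi changes was called for either. The differences were -0.09 and -0.02 on the log2 scale, with adjusted p = 0.983 and 0.996 by edgeR. Homo libraries were at or near 0 with both RNAi, so these differences are uncertain. The lack of a call does not show equal changes. In the opa1;egfp tails, SMED30022734 averaged 64.1 ± 39.1 at 1dpa and 3.58 ± 3.12 at 0dpa in the authors' scaled values (SD, n = 3 each), a rise of 3.96 on the log2(value + 1) scale with an SE of 0.65 (limma, adjusted p = 2.25e-05). SMED30029247 averaged 7.84 ± 8.33 there at 1dpa and was at 0 in all 0dpa tails, and was not called (limma, adjusted p = 0.0555).

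Of the largest falls, SMED30009537 also fell with every other RNAi, while SMED30004898 fell with drp1 RNAi but was not called lower with egfp or sod2 RNAi. SMED30009537 had 0.614, 0.445 and 0.584 CPM at 1dpa with opa1 RNAi, against 7.85, 6.89 and 4.27 CPM at homo. Its log2 fold change was -3.51 (SE 0.39, edgeR, adjusted p = 6.39e-09). With drp1, sod2 and egfp RNAi its log2 fold changes were -3.13, -3.53 and -3.79, the highest adjusted p by edgeR being 1.81e-07. In opa1;egfp tails it averaged 5.80 ± 2.62 at 1dpa and 13.9 ± 5.26 at 0dpa in scaled values (SD, n = 3 each), and was not called (limma, adjusted p = 0.222). SMED30004898 had 0.552, 0.381 and 0.584 CPM at 1dpa with opa1 RNAi, against 8.12, 7.06 and 2.22 CPM at homo. Homo replicate 3 was the lowest of its group, and the log2 fold change was -3.49 (SE 0.41, edgeR, adjusted p = 2.46e-08).

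With egfp RNAi SMED30004898 had 1.82, 1.73 and 1.84 CPM at 1dpa, against 2.17, 1.73 and 1.99 CPM at homo, and no change was called (edgeR, adjusted p = 0.867). Its level with opa1 RNAi was thus above that with egfp RNAi at homo, by 1.55 on the log2 scale (edgeR, adjusted p = 0.00111), and below it at 1dpa, at -1.81 (edgeR, adjusted p = 0.00793). With sod2 RNAi it had 2.09, 2.27 and 3.65 CPM at 1dpa, against 0.892, 0.698 and 1.67 CPM at homo, and rose by 1.29 on the log2 scale (edgeR, adjusted p = 0.0218). In opa1;egfp tails it averaged 10.5 ± 6.21 at 1dpa and 109 ± 81.7 at 0dpa in scaled values (SD, n = 3 each), a fall called by limma (adjusted p = 0.0197).

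**Figure D3:**
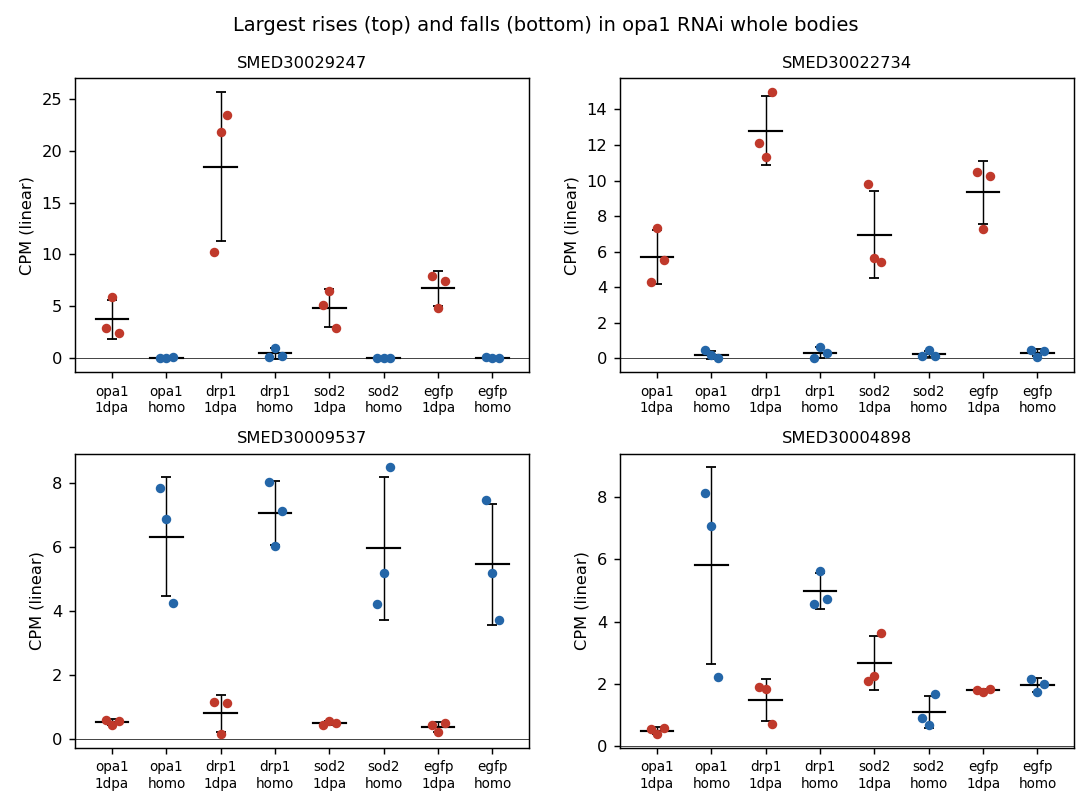
CPM per library of the named features with the largest rises (top) and falls (bottom) in opa1 RNAi whole bodies, with red points for 1dpa and blue points for homo libraries, horizontal bars for means and whiskers for the SD of 3 libraries, on linear axes. SMED30029247, SMED30022734 and SMED30009537 move the same way with all 4 RNAi, while SMED30004898 has 1.82, 1.73 and 1.84 CPM at 1dpa and 2.17, 1.73 and 1.99 CPM at homo with egfp RNAi.

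By difference in mean CPM, which is not corrected for length, the greatest losses were in features among those with the most counts. Such a ranking favours features with many counts. SMED30007704 had 14420, 14029 and 15765 CPM at 1dpa with opa1 RNAi, against 30045, 26892 and 27047 CPM at homo. The groups lay far apart, with a log2 fold change of -0.93 (SE 0.07, edgeR, adjusted p = 1.13e-11). It fell in egfp RNAi by 0.42 on the log2 scale, and the difference from opa1 RNAi was -0.50 (SE 0.10, edgeR, adjusted p = 0.000438). SMED30018637 had 13875, 14568 and 15449 CPM at 1dpa, against 27672, 27652 and 24351 CPM at homo, with a log2 fold change of -0.86 (SE 0.06, edgeR, adjusted p = 3.79e-12). These falls were smaller with TPM, where the weakest log2 fold changes were -0.35 and -0.27, and kept their direction and their call where no 2-fold change was required.

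The greatest gains of CPM were of smaller size. SMED30035193 had 4942, 4940 and 4984 CPM at 1dpa with opa1 RNAi, against 3601, 2948 and 3443 CPM at homo, with a log2 fold change of 0.57 (SE 0.08, edgeR, adjusted p = 4.62e-07). SMED30020726 had 2166, 2558 and 1875 CPM at 1dpa, against 740, 1467 and 1248 CPM at homo, with a log2 fold change of 0.93 (SE 0.16, edgeR, adjusted p = 1.28e-05). The 1dpa libraries of both lay above their homo libraries without overlap. SMED30035193 rose with egfp RNAi too, by 0.38 on the log2 scale (edgeR, adjusted p = 0.000923), and its difference of 0.20 was not called (edgeR, adjusted p = 0.197). SMED30020726 did not pass the test with egfp RNAi, where it had 1608, 1632 and 1630 CPM at 1dpa and 1370, 1596 and 1985 CPM at homo, and the difference between the changes was called (edgeR, adjusted p = 0.00191). In opa1;egfp tails both averaged less at 1dpa than at 0dpa, SMED30035193 at 24165 ± 7257 and 36456 ± 2889 and SMED30020726 at 3272 ± 610 and 5804 ± 701 in scaled values (SD, n = 3 each), and limma called both falls (adjusted p = 0.000262 and 0.0225).

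SMED30010319, chosen in an earlier look at these data because it was low wherever opa1 RNAi had been given, was less low at 1dpa. It had 10.2, 9.72 and 10.5 CPM at 1dpa with opa1 RNAi, against 4.64, 3.40 and 4.87 CPM at homo. The groups did not overlap and the log2 fold change was 1.24 (SE 0.15, edgeR, adjusted p = 4.16e-08). With egfp RNAi it had 43.1, 48.0 and 43.5 CPM at 1dpa, against 32.6, 34.0 and 40.1 CPM at homo, a log2 fold change of 0.33, and the difference of 0.90 from opa1 RNAi was called (edgeR, adjusted p = 0.000456). SMED30014993, chosen in the same way for being high, had 4.23, 2.22 and 3.05 CPM at 1dpa with opa1 RNAi, against 3.30, 2.04 and 4.01 CPM at homo, and these overlapped. Neither is named as a target of the RNAi.

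The change with time was wider with opa1 RNAi than with the others. Called in drp1 RNAi were 7389 features (32.3%), 3683 (16.1%) higher and 3706 (16.2%) lower at 1dpa. Called in sod2 RNAi were 4174 (18.2%), 2010 (8.78%) higher and 2164 (9.45%) lower, and in egfp RNAi 4285 (18.7%), 2250 (9.83%) higher and 2035 (8.89%) lower. The SD of the log2 fold changes over all features was 0.84 with opa1, 0.63 with drp1, 0.53 with sod2 and 0.49 with egfp RNAi. Higher at 1dpa were 49.8% of the drp1 and 52.5% of the egfp RNAi calls with TMM, and 79.9% and 67.4% with library totals. The share moved less with sod2 RNAi, from 48.2% with TMM to 55.0% with library totals. These numbers of calls are not themselves a test of the difference, which the contrasts below give.

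Tested directly, the change with time differed between opa1 and egfp RNAi in 6524 features (28.5%), being more positive with opa1 RNAi in 2931 and more negative in 3593. Of the 2931, 2611 were called higher at 1dpa with opa1 RNAi itself, while 417 were higher and 260 lower with egfp RNAi. Of the 3593, 3184 were called lower with opa1 RNAi, while 489 were higher and 520 lower with egfp RNAi. Over all features 27.2% were higher and 26% lower with opa1 RNAi. The contrast holds the opa1 RNAi change itself, so these counts are a description. The balance again moved with the scaling: 44.9% of the differences were positive with TMM, 78.8% with library totals and 90.6% with TPM. Called the same way under all 4 scalings were 2731 of the 2931 positive and 847 of the 3593 negative differences.

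Most features called with time in egfp RNAi were called the same way in opa1 RNAi, and the comparisons share no library. Called higher in both were 1472 features, 23.6% of those higher with opa1 and 65.4% of those higher with egfp RNAi. Called lower in both were 1514, which were 25.4% and 74.4%. Over all features, 9.83% were higher and 8.89% lower with egfp RNAi, and 27.2% and 26% with opa1 RNAi. Called in opposite directions were 73 features higher with opa1 and lower with egfp RNAi, and 207 the other way. All 280 had a called difference, which 2 called changes in opposite directions make nearly certain. Where both were called in the same direction, the difference was called in 984 of 2986 features, and in 937 of these the opa1 RNAi change was the larger. Across all features the log2 fold changes of the 2 RNAi correlated at r = 0.338 and rho = 0.357.

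With edgeR, more features were called between opa1 and egfp RNAi at homo than at 1dpa, but with TPM the order depended on the pseudocount. There limma called 6708 at homo and 6888 at 1dpa with a pseudocount of 1, and 7182 and 6414 with 0.1. At homo 7961 features (34.8%) were called between opa1 and egfp RNAi, 4395 higher and 3566 lower with opa1 RNAi, and over 2-fold 256 higher and 1330 lower. At 1dpa 2564 (11.2%) were called, 1045 higher and 1519 lower, and over 2-fold 84 higher and 179 lower. Higher with opa1 RNAi were 55.2% of the calls at homo with TMM and 24.8% with library totals, and at 1dpa 40.8% and 69.7%. Of the 2931 features with a positive difference in change, the mean of opa1 RNAi at homo was the lowest of the 4 group means in 2647 (90.3%), and that of opa1 RNAi at 1dpa the highest in 1959. Of the 3593 with a negative difference, opa1 RNAi at homo was the highest in 3121 (86.9%) and opa1 RNAi at 1dpa the lowest in 2598. Among the 16365 features with no called difference, opa1 RNAi at homo was the lowest in 40.5% and the highest in 30.1%. The same 12 libraries chose and ordered these features, so the order is a description. The number called at homo was 5128 without egfp RNAi homo replicate 3. At 1dpa it was 1503 without opa1 RNAi replicate 1, and 1586 and 1698 without egfp RNAi replicates 1 and 3.

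Named differences were limited to features with an average log2 CPM of at least 1 and opa1 RNAi libraries separated between the times. Within these limits, the largest positive differences from egfp RNAi were of SMED30018972 and SMED30025990. Their estimated counts lay more than 0.01 from a whole number in 12 and 16 of 24 libraries. Such counts arise where reads are divided between features, so the values are uncertain. Counts just above 0 were taken as whole. With opa1 RNAi at homo, SMED30018972 had estimated counts of 1.3e-08 and 9.63e-05 in replicates 1 and 3. SMED30025990 had 0 and 0.00649 in replicates 1 and 2 of that group. Reads may have been divided there too, so 0 CPM need not mean absence, which was not tested. SMED30018972 had 10.5, 11.9 and 8.57 CPM at 1dpa with opa1 RNAi, against 0, 2.30 and 0 CPM at homo. With egfp RNAi it had 6.54, 8.65 and 7.85 CPM at 1dpa, against 5.23, 4.41 and 5.49 CPM at homo. The opa1 RNAi homo libraries lay below all of these, and the difference of log2 fold changes was 3.11 (SE 0.85, edgeR, adjusted p = 0.00611). SMED30025990 had 12.1, 10.5 and 13.2 CPM at 1dpa with opa1 RNAi, against 0, 0 and 2.39 CPM at homo. With egfp RNAi it had 8.43, 11.3 and 9.76 CPM at 1dpa, against 5.79, 6.58 and 4.57 CPM at homo, and the difference was 3.07 (SE 0.79, edgeR, adjusted p = 0.00402).

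Both differences rest on homo libraries at or near 0. Without opa1 RNAi homo replicate 2, that of SMED30018972 was 9.44, and without replicate 3 that of SMED30025990 was 9.48. Leaving out another opa1 RNAi homo library gave 2.52 for SMED30018972 without replicate 1, and 2.48 and 2.45 for SMED30025990 without replicates 1 and 2, all called by edgeR. DESeq2 called neither, with adjusted p = 0.116 and 0.111. Over all alternatives the adjusted p ran from 5.85e-05 to 0.116 for SMED30018972 and from 2.73e-05 to 0.111 for SMED30025990.

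Within the same limits, the largest negative differences from egfp RNAi were of unlike kinds. SMED30021776 had 1.10, 0.508 and 1.17 CPM at 1dpa with opa1 RNAi, against 1.78, 1.36 and 1.37 CPM at homo, a change that was not called (edgeR, adjusted p = 0.353). With egfp RNAi it had 5.45, 21.6 and 1.61 CPM at 1dpa, against 0.965, 0.952 and 1.33 CPM at homo. The difference of -3.82 (SE 0.82, edgeR, adjusted p = 0.00076) lay in the egfp RNAi libraries, and was -2.38 without egfp RNAi 1dpa replicate 2. That library, at 21.6 CPM, also raised the average level that let SMED30021776 be named. Whether it would pass that limit without the library was not tested. SMED30004898, whose values are given above, differed by -3.36 (SE 0.58, edgeR, adjusted p = 6.23e-05), and there it was opa1 RNAi that changed.

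**Figure D4:**
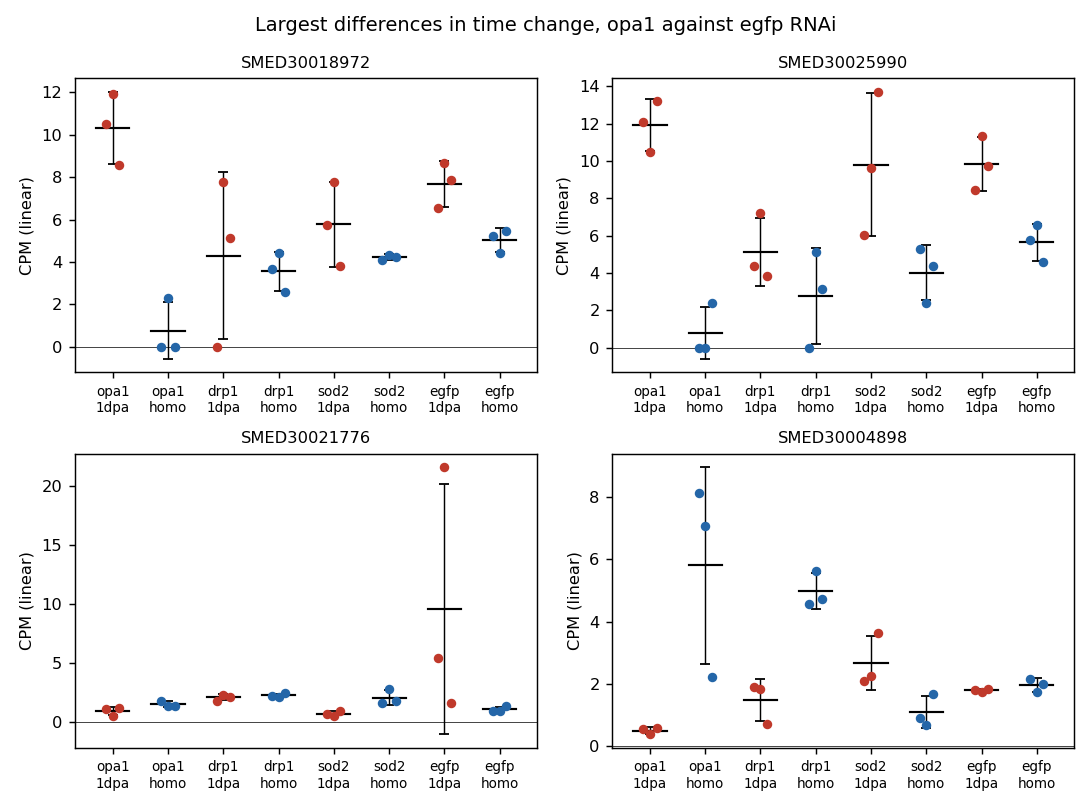
CPM per library of the named features with the largest positive (top) and negative (bottom) differences in time change between opa1 and egfp RNAi whole bodies, with red points for 1dpa and blue points for homo libraries, bars for means and whiskers for the SD of 3 libraries, on linear axes. SMED30018972 and SMED30025990 are near 0 at homo with opa1 RNAi, at 0, 2.30 and 0 CPM and at 0, 0 and 2.39 CPM, and the high egfp RNAi mean of SMED30021776 at 1dpa rests on a library at 21.6 CPM.

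Fewer differences in the change were called against drp1 RNAi. A difference was called in 1261 features (5.51%), 443 positive and 818 negative. Called higher in both were 2942 features, 47.2% of those higher with opa1 and 79.9% of those higher with drp1 RNAi, and called lower in both were 3272, which were 55.0% and 88.3%, beside the 27.2% higher and 26% lower of all features with opa1 and the 16.1% and 16.2% with drp1 RNAi. Called in opposite directions were 31 features. Across all features the changes correlated at r = 0.642 and rho = 0.690. The number of called differences depended on single libraries, being 2184 without drp1 RNAi 1dpa replicate 2 and 484 without replicate 1 of that group. It was 708 without replicate 3 of that group, 547 without drp1 RNAi homo replicate 2, 762 without opa1 RNAi homo replicate 1, and 696 and 550 without opa1 RNAi 1dpa replicates 1 and 2. With TPM 395 were called, and 35.1% were positive with TMM against 69.7% with library totals and 79.5% with TPM.

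Part of the features in which opa1 and egfp RNAi differed were also called with drp1 RNAi, mostly in the direction of the difference, and its libraries took no part in that contrast. Of the 2931 with a positive difference, 1247 (42.5%) were called higher at 1dpa with drp1 RNAi and 75 lower, with a median log2 fold change of 0.38. Of the 3593 with a negative difference, 145 were higher and 2027 (56.4%) lower, with a median of -0.34. Over all features 16.1% were higher and 16.2% lower, with a median of 0.03. Some features had the same difference under all 4 scalings. Of these, 1201 of 2731 positive ones were higher with drp1 RNAi and 578 of 847 negative ones lower. The drp1 RNAi calls used here are with TMM alone. Under all 4 scalings, 3444 of the 3683 drp1 RNAi rises held, but only 873 of the 3706 falls. With sod2 RNAi, 416 of the 2931 were higher and 187 lower, and 595 of the 3593 were higher and 471 lower, against 8.78% and 9.45% of all features.

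**Figure D5:**
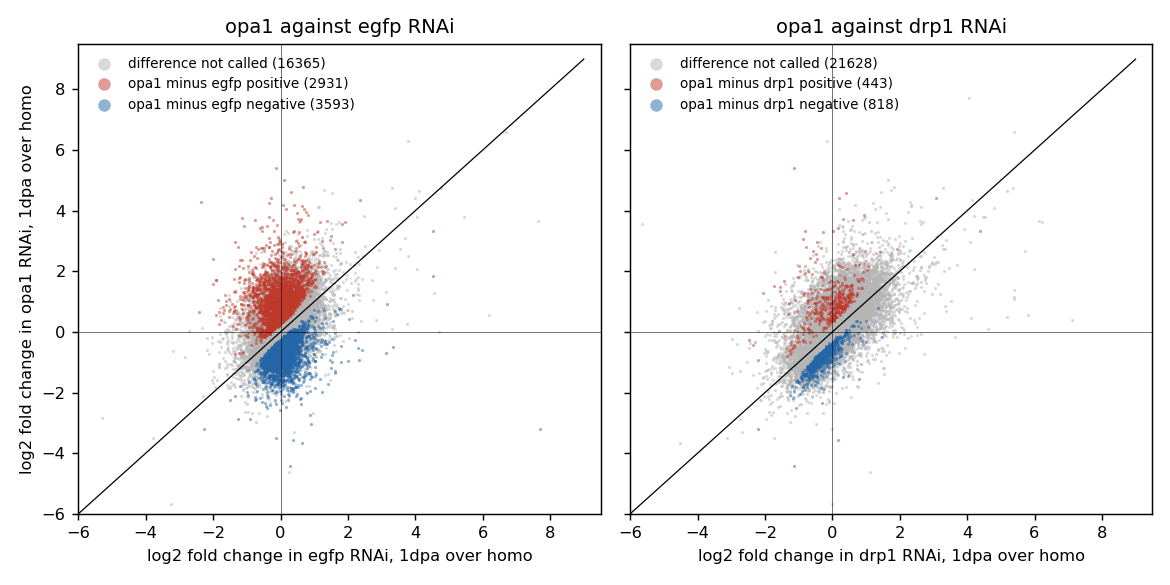
Log2 fold change of 1dpa over homo per feature, with opa1 RNAi on the vertical axis and egfp RNAi (left) or drp1 RNAi (right) on the horizontal axis, and a line where both are equal. Coloured points have a called difference, 2931 positive and 3593 negative against egfp RNAi and 443 and 818 against drp1 RNAi, and the cloud follows the line more closely on the right (r = 0.642) than on the left (r = 0.338).

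Within the limits for naming, the largest negative differences from drp1 RNAi were of features that fell with opa1 RNAi. Separated opa1 RNAi libraries were among those limits, and larger called differences lay outside them. SMED30007040 had 2.27, 2.35 and 2.47 CPM at 1dpa with opa1 RNAi, against 5.71, 7.23 and 7.86 CPM at homo, with a change of -1.55 on the log2 scale (edgeR, adjusted p = 1.62e-05). With drp1 RNAi it had 14.9, 11.2 and 8.02 CPM at 1dpa, against 6.21, 7.89 and 5.69 CPM at homo, and rose by 0.79 (edgeR, adjusted p = 0.011). The 2 RNAi moved in opposite directions, with a difference of -2.34 (SE 0.36, edgeR, adjusted p = 0.00048). It rose with sod2 and egfp RNAi as well, by 2.07 and 1.18, with adjusted p = 5.89e-06 and 0.00243 by edgeR. SMED30010932, with divided reads in 20 of 24 libraries and so uncertain, had 3.68, 5.15 and 5.06 CPM at 1dpa with opa1 RNAi, against 24.9, 26.4 and 18.5 CPM at homo. With drp1 RNAi it had 16.0, 17.4 and 8.50 CPM at 1dpa, against 21.5, 20.0 and 11.1 CPM at homo, and the difference was -2.01 (SE 0.36, edgeR, adjusted p = 0.00224).

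Within the same limits, the largest positive differences from drp1 RNAi were again of SMED30018972 and SMED30025990. They were 3.41 (SE 0.89) and 2.95 (SE 0.86), with adjusted p = 0.0211 and 0.0395 by edgeR. With drp1 RNAi SMED30018972 had 0, 7.78 and 5.13 CPM at 1dpa, against 3.65, 4.41 and 2.60 CPM at homo, and SMED30025990 had 4.36, 7.24 and 3.85 CPM at 1dpa, against 0, 5.13 and 3.17 CPM at homo. Each had a drp1 RNAi library at 0 CPM, with an estimated count of 0.00983 for SMED30025990. These calls were lost in 7 of 23 alternatives for SMED30018972 and in 13 of 23 for SMED30025990, with adjusted p up to 0.130 and 0.193. The difference of SMED30018972 was 9.74 without opa1 RNAi homo replicate 2, 2.82 without replicate 1 of that group and 4.17 without drp1 RNAi 1dpa replicate 2. That of SMED30025990 was 9.37 without opa1 RNAi homo replicate 3, 2.36 and 2.32 without replicates 1 and 2, and 3.55 and 2.25 without drp1 RNAi homo replicates 1 and 2.

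Against sod2 RNAi a difference was called in 6777 features (29.6%), 3171 positive and 3606 negative. Called higher in both were 1089 features, 17.5% of those higher with opa1 and 54.2% of those higher with sod2 RNAi, and called lower in both were 1444, which were 24.3% and 66.7%, beside the 8.78% higher and 9.45% lower of all features with sod2 RNAi. Called in opposite directions were 92 features higher with opa1 and lower with sod2 RNAi, and 469 the other way. With TPM 10959 differences were called. Positive were 46.8% of the differences with TMM, 79.6% with library totals and 90.1% with TPM.

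Within the limits for naming, the largest positive differences from sod2 RNAi were of SMED30018972, at 3.28 (SE 0.86, edgeR, adjusted p = 0.00395), and SMED30034869. The reads of SMED30034869 were divided in all 24 libraries. The difference of SMED30018972 was 9.61 without opa1 RNAi homo replicate 2 and 2.69 without replicate 1 or 3, and DESeq2 did not call it (adjusted p = 0.0997). SMED30034869 had 14.0, 16.7 and 11.7 CPM at 1dpa with opa1 RNAi, against 1.43, 2.64 and 3.07 CPM at homo. With sod2 RNAi it had 5.23, 5.10 and 6.06 CPM at 1dpa, against 7.44, 4.81 and 5.16 CPM at homo. Its sod2 RNAi groups overlapped, and the difference was 2.65 (SE 0.36, edgeR, adjusted p = 1.42e-06).

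Within the same limits, the largest negative differences from sod2 RNAi were of SMED30004898, at -4.78 (SE 0.58, edgeR, adjusted p = 1.68e-07), and SMED30024144, at -3.87 (SE 0.58, edgeR, adjusted p = 5.55e-06). SMED30024144, with divided reads in 19 of 24 libraries, had 2.02, 2.67 and 2.86 CPM at 1dpa with opa1 RNAi, against 6.25, 5.61 and 9.14 CPM at homo. With sod2 RNAi it had 8.59, 6.88 and 7.37 CPM at 1dpa, against 1.49, 1.32 and 1.52 CPM at homo. It thus fell with opa1 and rose with sod2 RNAi (edgeR, adjusted p = 0.00201 and 0.000136).

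The opa1;egfp tails, which share no library with the whole bodies, had fewer features called the same way as the whole bodies than the opposite way. Between 1dpa and 0dpa limma called 2963 of 20681 tail features higher (14.3%) and 2846 lower (13.8%). Without 0dpa replicate 2 the 5809 calls were 3806. Of the features higher in opa1 RNAi whole bodies, 5556 were tested in tails, where 856 were higher and 1155 lower. Of the features lower in whole bodies, 5838 were tested, and 1043 were higher and 877 lower. Over all 20115 features tested in both, the log2 changes correlated at r = 0.169. Of features called in both, 1733 went the same way and 2198 the opposite way. Of the named features not yet given for tails, SMED30025990 went against its whole-body rise, at 66.2 ± 62.3 at 1dpa and 144 ± 61.8 at 0dpa in scaled values (SD, n = 3 each), a change of -2.69 (limma, adjusted p = 0.0147). SMED30018637 fell by 0.36 (limma, adjusted p = 0.0489). SMED30018972, SMED30021776, SMED30007040, SMED30010932, SMED30024144, SMED30007704, SMED30010319 and SMED30014993 were not called, and SMED30034869 was at 0 in these tails and not tested.

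Of features changed over 2-fold in whole bodies, the falls were called lower more often than higher in tails, and the rises were not called higher more often than lower. Of the 2214 rises over 2-fold tested in tails, 325 were called higher and 403 lower there, with a median change of 0.31 on the log2(value + 1) scale, against 0.06 over all features tested in both. Of the 1096 falls over 2-fold, 59 were called higher and 185 lower, with a median of -0.22. Over all features tested in both, 14.7% were called higher and 14.0% lower. The baseline of the tails is 0dpa and that of the whole bodies is homo, so the experiments differ in tissue, baseline and RNAi pair, and these cannot be told apart.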

How the data were processed

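RNA was sequenced from 24 whole-body and 36 tail libraries, 3 for each group. Whole-body values are estimated counts of each feature as deposited by the authors, and the table's name points to kallisto. Its version, index and build are not given in the sources used here. TPM values, deposited and scaled by the authors for length and depth, were used for an alternative and for relative length. The tail table holds a signal that the authors had already scaled between libraries, by a method that is not stated. Per the labels' protocols, libraries were made from total RNA.

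Estimated counts were rounded to whole numbers. Of 36034 features, 22889 passed edgeR's filter for low counts. They were tested with edgeR 4.0.16 in R 4.3.3 by quasi-likelihood, with TMM scaling, over all 24 whole-body libraries and 8 group means. CPM values are TMM-scaled. Tails were tested with limma 3.58.1 on log2(value + 1), for the 20681 features that reached 10 in 3 or more libraries, since the values are not counts. P-values were adjusted by Benjamini-Hochberg within each comparison and called under 0.05. SE stands for standard error, on the log2 scale. For edgeR it was worked back from the log2 fold change and its F statistic, which is unreliable where the change is small. The tests were tried on simulated data in which few features changed, as often up as down. That setting lacks the broad change seen here, so it cannot test the choice of scaling. Depth was 10610000 to 14330000 estimated counts in whole-body libraries and is unknown for tails.

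Named features are, for each test involving opa1 RNAi, the 2 largest changes each way among called features with an average log2 CPM of at least 1 and with opa1 RNAi libraries separated between the times, and the 2 that gained and the 2 that lost the most CPM. The members, tests and lists were chosen with earlier results of these data known. Lists of known genes and cell type markers could not be used, as 0 features could be matched to names. Same-numbered libraries of the 2 times deviated together with r of -0.044 to 0.007 in opa1 RNAi, so replicate numbers were not taken to pair libraries. Alternatives were RLE scaling, library totals, DESeq2 1.42.0, other filters, TPM, a replicate block, and leaving out libraries or the most abundant feature.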

Additional observations from a re-analysis of the deposited data

Results flagged for a closer look

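Differences between RNAi groups under the same contrast, tested as interactions with edgeR (adjusted p under 0.05), stood out as follows. The change from homo to 1dpa differed between opa1 and egfp RNAi in 6524 features, between opa1 and drp1 RNAi in 1261 and between opa1 and sod2 RNAi in 6777. As differences of log2 fold changes from egfp RNAi, SMED30018972 had 3.11, SMED30025990 had 3.07, SMED30021776 had -3.82 and SMED30004898 had -3.36. From drp1 RNAi, SMED30018972 had 3.41, SMED30025990 had 2.95, SMED30007040 had -2.34 and SMED30010932 had -2.01. From sod2 RNAi, SMED30018972 had 3.28, SMED30034869 had 2.65, SMED30004898 had -4.78 and SMED30024144 had -3.87. The reads of SMED30018972, SMED30025990, SMED30010932, SMED30034869 and SMED30024144 were divided between features in 12 or more of 24 libraries, and the part of this in their differences was not tested.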

How the results depend on the processing

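Each feature named for its change or difference was tried under other settings in the contrasts that chose it. None reversed its direction there, and 384 of 411 values kept their call, 27 losing it. Features named for the opa1 RNAi change had separated libraries, so leaving out 1 library could hardly reverse them. Those named for a difference were also the largest called ones with separated opa1 RNAi libraries. They were tried again on the same libraries that chose them, so these counts are a description. SMED30010319 and SMED30014993 were not tried under other settings. Of all features, 932 called for the opa1 RNAi change were called the opposite way with TPM and 89 with library totals, and 92 for its difference from egfp RNAi and 177 from sod2 RNAi with TPM. The share of positive calls crossed from a minority to a majority for the differences from egfp, drp1 and sod2 RNAi under library totals or TPM, as given above. Of 181 numbers of calls under other settings, 154 lay within 1.5 times the reported number. Called and over 2-fold were 4059 features for the opa1 RNAi change, 2069 for its difference from egfp, 220 from drp1 and 2176 from sod2 RNAi. They were 1285 for the drp1, 528 for the sod2 and 449 for the egfp RNAi change, and 1586 and 263 for opa1 against egfp RNAi at homo and at 1dpa. With TPM and a pseudocount of 1 or 0.1, the difference from drp1 RNAi gave 395 and 420 calls, that from sod2 RNAi 10959 and 10848, and opa1 against egfp RNAi 6708 and 7182 at homo and 6888 and 6414 at 1dpa, and the cause was not tested. Leaving out 1 library gave 10707 to 11515 calls for the opa1 RNAi change, 4869 to 6985, 484 to 2184 and 5599 to 6617 for its differences from egfp, drp1 and sod2 RNAi, 5806 to 7094, 2852 to 3746 and 3028 to 4549 for the drp1, sod2 and egfp RNAi changes, 5128 to 8184 and 1503 to 2235 for opa1 against egfp RNAi at homo and at 1dpa, and 3806 to 5422 for the tails. With a replicate block the opa1 RNAi change gave 12198 calls, and its differences from egfp, drp1 and sod2 RNAi 6621, 1485 and 6857. With only the libraries compared, 21.6% of the differences from drp1 RNAi were positive. With DESeq2, 11604 features were called for the opa1 RNAi change, 48.4% of them higher.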
